A study of Sus scrofa with 5 samples.

Results

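OSMR-positive nuclei of pig dorsal root ganglia were compared by whether they also carried transcripts of IL31RA. Nuclei with at least 1 unique molecular identifier (UMI, a tag that marks 1 captured RNA molecule) of OSMR and a total of 2000 to 50000 UMIs were taken. Those with at least 2 IL31RA UMIs are called double-positive nuclei, and those with 0 IL31RA UMIs are called IL31RA-zero nuclei. Of 2189 nuclei in the table, 1635 lay in that range of totals and 492 of these held OSMR: 212 were double-positive, 238 were IL31RA-zero, and 42 with exactly 1 IL31RA UMI were kept apart. The 450 members were thus chosen by their measured OSMR and IL31RA UMIs.

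RNA of single nuclei was measured in ganglia of the thoracic and lumbar spine, 80 mg of tissue per sample, from 5 male Landrace pigs. The pigs form a single group with no treatment or genotype contrast, and the labels read here give no age. Isolation differed between samples, with either IGEPAL CA-630 or Triton X-100 as detergent, and with a density gradient or an antibody to the neuronal nuclear protein NeuN to clear debris or enrich neurons. The count table pools the pigs: its barcodes carry 6 numeric endings, which nothing ties to a pig or a protocol, so both sides come from 1 pooled sample, no test was run, and each 95% interval covers counting error only.

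OSMR encodes a receptor chain of the gp130 cytokine receptor family. It pairs with gp130, encoded by IL6ST, to form a receptor for oncostatin M, and with the IL31RA chain to form the receptor for interleukin-31, a cytokine of T helper cells that drives itch in skin inflammation. Receptors of this family have no kinase of their own and signal through bound Janus kinases, chiefly JAK1 and JAK2, to STAT transcription factors. In rodent ganglia the pair is known from small-diameter itch neurons that also make the peptides NPPB and somatostatin.

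In the RefSeq annotation of build Sscrofa11.1, OSMR lies on chromosome 16 from 24041312 to 24101842 and IL31RA from 34987399 to 35071367. IL6ST is a close neighbour of IL31RA, from 35101304 to 35151832, without overlap. Double-positive nuclei held 935 OSMR UMIs in all and 2481 IL31RA UMIs, or 364 and 965.5 CPM (UMIs of a gene scaled to 1000000 UMIs of the side). A double-positive nucleus carried a median of 3 OSMR and 8 IL31RA UMIs, with up to 23 and 86. IL31RA-zero nuclei held 472 OSMR UMIs (180.4 CPM), a median of 1 and up to 15 per nucleus. At the lower edge of the double-positive side, 27 nuclei had exactly 2 IL31RA UMIs, and just outside it stood the 42 nuclei with 1. These values chose the sides and are given as a description.

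By barcode ending, double-positive nuclei numbered 66, 60, 48 and 37 in endings 1, 3, 5 and 6, and IL31RA-zero nuclei 72, 71, 47 and 39. Ending 4 held 1 double-positive and 9 IL31RA-zero nuclei, and ending 2 held none. OSMR stood at 511.5, 366, 326 and 273 CPM in the double-positive nuclei of endings 1, 3, 5 and 6, against 175.5, 266, 256.5 and 93.1 CPM in the IL31RA-zero nuclei. The double-positive side was the higher in each of these 4 endings, and the gap was narrowest in ending 5.

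IL31RA was found more often the more OSMR a nucleus held. At least 2 IL31RA UMIs were present in 10.5% of nuclei without OSMR (120 of 1143; 8.78 to 12.4%), in 25.4% of those with 1 OSMR UMI (59 of 232; 19.96 to 31.5%), in 58.8% of those with 2 or more (153 of 260; 52.6 to 64.9%) and in 70.1% of those with 4 or more (94 of 134; 61.6 to 77.7%). Depth moved with this order, with median totals of 5117, 7321, 10540 and 12721 UMIs, and its part in it was not tested. Among nuclei with 2 or more OSMR UMIs the share was 67.4, 57.4, 54.3 and 59.5% in endings 1, 3, 5 and 6.

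OSMR was also found in nuclei that carried markers of other neurons. Of 216 nuclei with at least 5 UMIs of large-fibre markers (genes of touch and muscle afferents such as PVALB, NTRK2 and NTRK3) and fewer of C-fibre markers, 29.6% held OSMR (23.6 to 36.2%; median total 6680 UMIs), against 30.1% of all nuclei in range (median total 6080 UMIs). With 2 or more OSMR UMIs the shares were 13.4 and 15.9%, and after thinning each nucleus to 2000 UMIs 7.41 and 14.2%. Over the gates the share with OSMR ran from 19.5% of TRPM8 nuclei to 71.9% of LPAR3 nuclei. At least 1 OSMR UMI was thus about as frequent in large-fibre nuclei as in all nuclei at full depth. After thinning it was less frequent in large-fibre nuclei (7.41%, 4.29 to 11.75%, against 14.2%). Of the 238 IL31RA-zero nuclei, 150 had no more than 1 OSMR UMI. The part of any background transcripts in the IL31RA-zero side was not tested. The summed OSMR level did differ between kinds of nuclei: it was 55.9 CPM (46.2 to 66.9) in the large-fibre nuclei, 39.2 CPM in nuclei with at least 3 UMIs of the cold channel gene TRPM8, 124 CPM (110 to 140.5) with at least 3 UMIs of GFRA2 and 207 CPM (179 to 238) with at least 3 UMIs of LPAR3. In the 57 LPAR3 nuclei, 56.1% had 2 or more OSMR UMIs, and OSMR stood at 269.7, 267 and 152 CPM in endings 3, 5 and 6, the 3 endings with at least 10 such nuclei. IL31RA stood at 64.3 CPM there, against 573 CPM in nuclei with at least 3 UMIs of NPPB.

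Both sides were neuronal and of similar depth. Median totals were 9948 and 8620 UMIs, at least 3 UMIs of 10 pan-neuronal genes were present in 100% and 99.6% of nuclei, and those genes summed to 6613 CPM in double-positive and 11400.3 CPM in IL31RA-zero nuclei. Satellite glia and Schwann cell markers summed to 1058 and 1545 CPM, ranging over endings from 428 to 2717 and from 418 to 3443. Fibroblast (177 and 191 CPM), endothelial (87.95 and 83.3 CPM), mural (28.4 and 24.5 CPM), macrophage (23.7 and 33.3 CPM) and lymphocyte markers (18.7 and 23.3 CPM) were low on both sides. Mitochondrial transcripts made 6.99 and 6.46% of the UMIs, and in ending 3 they made 30.6 and 22.6%. No barcode was shared between endings, and no nucleus was removed as a doublet. The part of these values in the results was not tested.

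The 2 sides differed in many markers of neuron classes, but not every marker of a class moved together. In the itch-neuron list that holds NPPB, JAK1, CYSLTR2 and SST were higher in double-positive nuclei. HTR1F of that list held 15 UMIs against 14 in IL31RA-zero nuclei, and NTS 1 against 27. In the putative silent nociceptor list that holds SCN11A, CHRNA3 held 12 against 29 UMIs and ADORA2B 23 against 25. Of double-positive nuclei, 47.2% (40.3 to 54.1%) had at least 3 UMIs of the natriuretic peptide gene NPPB, against 9.24% (5.88 to 13.7%) of IL31RA-zero nuclei, and 84.4% (78.8 to 89.0%) against 29.0% (23.3 to 35.2%) had at least 3 of SCN11A, which encodes the persistent nociceptor sodium channel Nav1.9. The order was opposite for PIEZO2, the mechanically gated channel of touch, at 17.9% (13.0 to 23.8%) against 65.1% (58.7 to 71.2%). It was also opposite for the GDNF-family co-receptor gene GFRA2 (6.13 against 19.3%), the lysophosphatidic acid receptor gene LPAR3 (1.89 against 12.6%), the BDNF receptor gene NTRK2 (10.4 against 34.5%) and the large-fibre gate (4 of 212 against 54 of 238 nuclei, or 1.89 against 22.7%). The C-fibre markers that this gate must exceed include NPPB, JAK1, CYSLTR2 and SST, so high counts of these genes keep a nucleus out. At least 3 UMIs of the large-fibre list alone were present in 24.1% of double-positive and 54.6% of IL31RA-zero nuclei. In 70 double-positive nuclei (33.0%) and 79 IL31RA-zero nuclei (33.2%) no gate of NPPB, NMB, GFRA2, LPAR3, TRPM8, KIT, ADCYAP1 or the large-fibre markers was reached. IL31RA-zero nuclei were thus a mixture. Double-positive nuclei were not uniform either: in ending 6, 27.0% of them passed the NTRK2 gate, 21.6% the ADCYAP1 gate and 18.9% the KIT gate. In endings 1, 3 and 5 the shares were 9.09, 1.67 and 10.4% for NTRK2, 0, 1.67 and 8.33% for ADCYAP1 and 0, 0 and 12.5% for KIT. Ending 6 was deeper, with a median total of 20419 UMIs against 8834, 6643.5 and 10099, and the part of depth was not tested. Each gene ratio below compares sums over mixed nuclei.

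Requiring 2 or more OSMR UMIs left 88 IL31RA-zero nuclei, and the mixture remained. In these, 79.5% (69.6 to 87.4%) passed the PIEZO2 gate, 28.4% the GFRA2 gate, 27.3% the LPAR3 gate and 28.4% the large-fibre gate, while 17.0% passed the NPPB gate and 46.6% the SCN11A gate. NPPB depended on the barcode ending: among double-positive nuclei 87.9 and 58.3% passed its gate in endings 1 and 3 but 10.4 and 2.70% in endings 5 and 6. The SCN11A gate was passed by 89.4, 78.3, 95.8 and 73.0% of double-positive nuclei in endings 1, 3, 5 and 6, against 19.4, 22.5, 38.3 and 51.3% of IL31RA-zero nuclei.

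**Figure D1:**
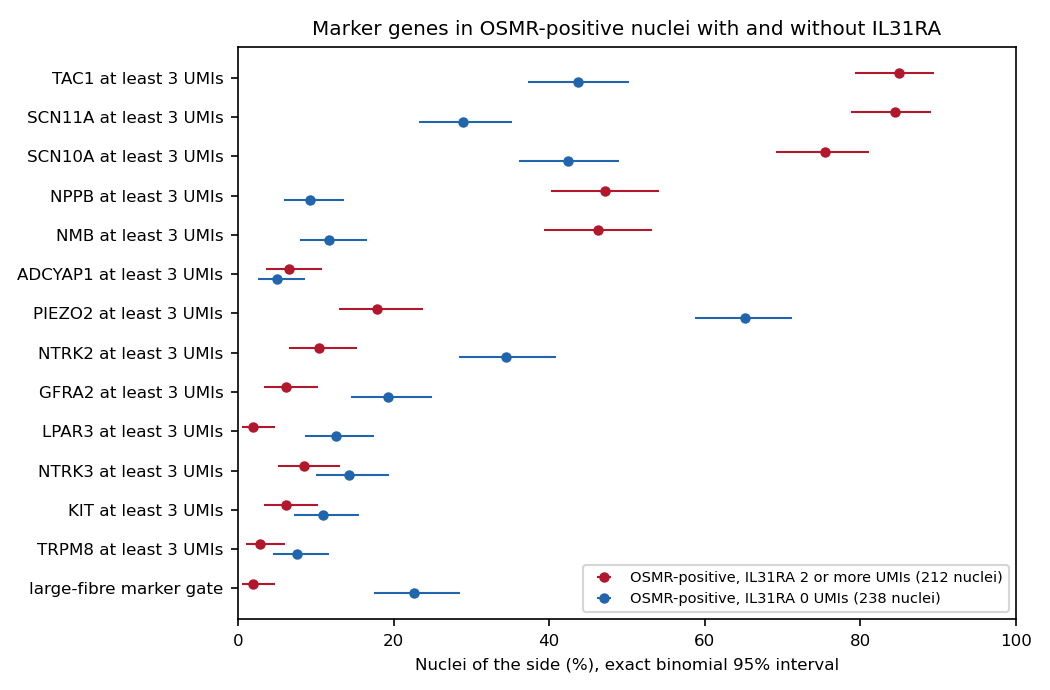
Share of nuclei (%) that reached each marker gate (vertical axis), for the 212 double-positive nuclei (red) and the 238 IL31RA-zero nuclei (blue); bars are exact binomial 95% intervals. TAC1, SCN11A, SCN10A, NPPB and NMB lie to the right in double-positive nuclei, PIEZO2, NTRK2, GFRA2, LPAR3 and the large-fibre gate in IL31RA-zero nuclei, and the intervals of ADCYAP1, NTRK3, KIT and TRPM8 overlap.

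Across 9996 genes, those holding 50 UMIs or more when the sides were added, 291 (2.91%) were at least 2-fold higher in double-positive nuclei and 572 (5.72%) at least 2-fold lower, around a median log2 ratio of -0.05. For 266 genes (2.66%) higher and 447 genes (4.47%) lower, the counting interval also excluded 1 and every ending with a value gave the same direction. Among nuclei without OSMR, those with 2 or more IL31RA UMIs differed from those with 0 in the same direction for 232 of these 266 genes and 428 of these 447. The share of all 9996 genes with the same direction was not counted, so these counts stand without a background. The groups without OSMR also differed in depth, with median totals of 8854.5 and 4779 UMIs, and the part of depth was not tested.

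Ranked by the interval bound nearest to equality, the genes above the IL31RA-zero side were led by TRPC6, a cation channel gated by diacylglycerol. KCNU1, given below, had the larger ratio. The genes named on each side were taken from those with the same direction in every ending with a value, so their agreement over endings was part of the choice. How many of all genes had endings that did not overlap was not counted, here or for the genes below. TRPC6 held 288 UMIs in 120 double-positive nuclei (112 CPM) and 8 UMIs in 8 IL31RA-zero nuclei (3.06 CPM), a log2 ratio of 5.20 (4.20 to 6.42). Its level in endings 1, 3, 5 and 6 was 91.3, 98.8, 124 and 129 CPM in double-positive nuclei, and 0, 0, 6.997 and 6.75 CPM in IL31RA-zero nuclei, so the sides did not overlap over endings. Without ending 6 the ratio was 6.03, and with sides set on thinned counts and compared on the remaining UMIs it was 3.25. The potassium channel gene KCNU1 held 57 UMIs against 1 (log2 5.86, 3.32 to 11.19), and was at 3.15 with sides set on thinned counts.

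IL17RD, an inhibitor of fibroblast growth factor signalling, stood at 174.7 against 14.9 CPM (log2 3.55, 3.08 to 4.06), with 215, 160.5, 162 and 162 CPM in the double-positive nuclei of endings 1, 3, 5 and 6 and 9.60, 14.6, 11.7 and 16.2 CPM opposite. CPNE5, which encodes a calcium-dependent phospholipid-binding protein of the copine family, stood at 349 against 45.5 CPM (log2 2.94, 2.66 to 3.23). RGS3, which shortens signalling of G proteins, stood at 277 against 35.5 CPM (log2 2.96, 2.65 to 3.29). In the 4 endings the ratios of these 3 genes lay between 2.39 and 4.39, where the same direction was required for naming them. With sides set on thinned counts IL17RD was at 2.20.

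The others on the higher side were KCP, a modulator of bone morphogenetic protein signalling (92.2 against 7.64 CPM), the transcription cofactor gene DACH2 (265 against 28.3 CPM), KLHL14 (84.8 against 8.79 CPM), COCH, an extracellular matrix protein gene (41.3 against 2.68 CPM), CHODL (202 against 27.1 CPM) and the peptide genes NPPB and NMB. Ending 1 moved 3 of them: without it the log2 ratio was 2.02 in place of 2.88 for NPPB, 1.96 in place of 2.90 for CHODL and 5.07 in place of 3.95 for COCH. Leaving out nuclei of other marker classes keeps 97 double-positive but 10 IL31RA-zero nuclei and uses NPPB, JAK1 and CYSLTR2 themselves to keep a nucleus. The median log2 ratio over all measured genes was then 0.32, against -0.05 in the main comparison. In that setting NPPB was at 0.82, NMB at 0.87 and KLHL14 at 0.97.

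On the lower side, PIEZO2 rested on the most UMIs (686 against 3421), followed by LHFPL3, a relative of a tetraspan protein of hair-cell mechanotransduction (135.0 against 766 CPM). PIEZO2 stood at 117, 53.5, 550.5 and 309 CPM in the double-positive nuclei of endings 1, 3, 5 and 6 and at 541, 1106, 2057 and 1948 CPM in the IL31RA-zero nuclei, with a pooled log2 ratio of -2.29 (-2.41 to -2.17). In ending 5 the double-positive level was close to the IL31RA-zero level of ending 1, and within each ending the IL31RA-zero side was higher. The spinal and cerebellar corepressor gene SKOR2 (log2 -3.94), the axonal potassium channel gene KCNA1 (-3.77), the transcription factor gene TBX3 (-3.51), the synaptic organizer gene CBLN2 (-3.51), the leak channel gene KCNK1 (-3.22), the phospholipase gene PLCD4 (-3.05), the glycolytic enzyme gene PFKP (-2.75) and ZMAT4 (-2.41) were also lower. P2RY1, a receptor for ADP (-4.18), and TRPM8 (-2.48) completed the 12.

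KCNA1 is itself one of the 11 large-fibre markers, which summed to 215 CPM in double-positive and 779.7 CPM in IL31RA-zero nuclei; the part of those nuclei in the lower genes was not tested. Several of these lower genes were sparse or uneven. P2RY1 had 4 UMIs against 74, SKOR2 5 against 78 and CBLN2 9 against 104, and 1 nucleus held 29.4% of the TRPM8 UMIs of the IL31RA-zero side. Leaving out ending 1 gave -2.91 for KCNA1, -5.34 for P2RY1 and -4.34 for CBLN2. Leaving out ending 6 gave -4.69 for KCNA1, leaving out ending 5 gave -4.52 for PLCD4 and -4.83 for SKOR2, and leaving out ending 3 gave -3.24 for SKOR2. With both sides limited to nuclei with at least 2 UMIs summed over the nociceptor sodium channel genes SCN10A and SCN11A, CBLN2 was at -0.22, TBX3 at -1.64, SKOR2 at -1.76 and TRPM8 at -1.55, while TRPC6 was at 4.57. With other marker classes left out PFKP was at -0.81. Without a limit on total UMIs TRPM8 was at -0.63.

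**Figure D2:**
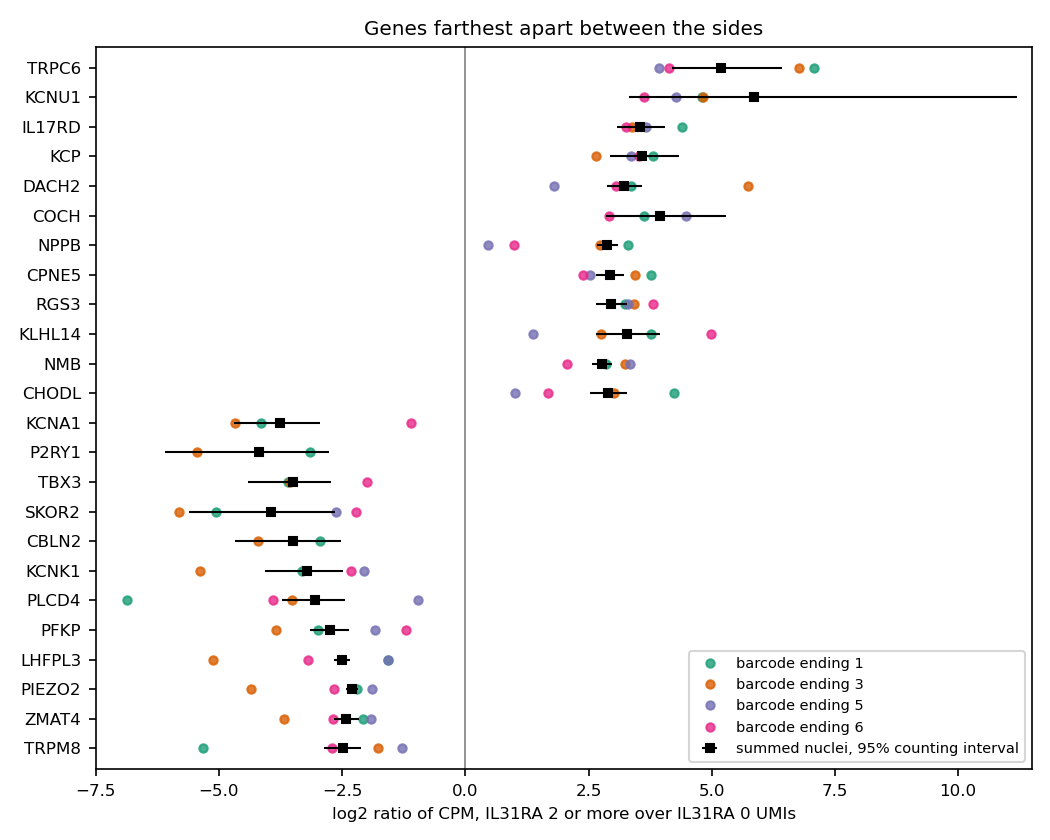
log2 ratio of CPM, double-positive over IL31RA-zero nuclei (horizontal axis), for the 12 genes farthest apart in each direction; squares are summed nuclei with the counting interval at 95%, coloured points the 4 barcode endings with at least 10 nuclei a side. Points of NPPB and CHODL spread from 0.46 and 1.00 in ending 5 to 3.31 and 4.22 in ending 1, while those of RGS3 lie between 3.25 and 3.80.

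The remaining chains of the gp130 family did not move together. IL6ST, the partner of OSMR in the oncostatin M receptor, was lower in double-positive nuclei, at 95.3 against 232 CPM (log2 -1.28, -1.50 to -1.07). In endings 1, 3, 5 and 6 it stood at 113, 74.1, 124 and 74.1 CPM against 249.5, 357, 177 and 175 CPM, and the 2 sides did not overlap. Without ending 3 the ratio was -0.99, after thinning -0.97 and without a limit on total UMIs -0.81. With nuclei of other marker classes left out, against 10 IL31RA-zero nuclei, it was 0.38, where the median over all genes was 0.32.

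LIFR, the chain that forms the receptor for leukaemia inhibitory factor with gp130, was higher, at 658 against 364 CPM (log2 0.85, 0.74 to 0.97), and lay between 628 and 718.5 CPM over the endings of the double-positive side against 266 to 480.4 CPM opposite. CNTFR, the anchor chain for ciliary neurotrophic factor, was low on both sides (7.39 against 17.6 CPM; 19 against 46 UMIs), with a log2 ratio of -1.25 that was -2.22 without ending 6, -0.90 without ending 1 and -0.73 with IL31RA counted from 1 UMI. IL6R (25 against 12 UMIs), IL11RA (12 against 8) and IL27RA (16 against 22) lay below the 50 UMIs set for a ratio. Of the 3 members with a ratio, none was 2-fold higher and 2 were 2-fold lower, against 2.91 and 5.72% of all genes, with a median of -1.25 (-0.05 over all genes) that ran from -1.52 to 0.64 over the alternatives.

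JAK1, the kinase bound to several cytokine receptor chains, was the only one of 16 measured JAK-STAT genes past 2-fold, where 2.91% of all genes were higher and 5.72% lower. It held 3166 UMIs in 206 double-positive nuclei (1232 CPM) and 969 UMIs in 207 IL31RA-zero nuclei (370.4 CPM), a log2 ratio of 1.73 (1.63 to 1.84). In endings 1, 3, 5 and 6 it stood at 2448, 957, 785 and 757 CPM against 517, 335, 345 and 305 CPM. The lowest ending of the double-positive side thus lay above the highest of the other.

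Other members of the pathway lay near equality. JAK2 was at 370.1 against 326 CPM (log2 0.18, 0.05 to 0.32, and -0.86 with other marker classes left out) and the kinase gene TYK2 at 22.2 against 19.5 CPM (0.19, -0.38 to 0.76). Of the STAT genes, STAT5B was at 105.5 against 67.7 CPM (0.64, 0.36 to 0.92), and STAT3, the main STAT of gp130 receptors, at 201 against 180.0 CPM (0.16, -0.03 to 0.34). The phosphatase gene PTPN11 was at 75.9 against 102 CPM (-0.43, -0.71 to -0.16, and 0.42 with other marker classes left out). The ratios of STAT5A, STAT6, the feedback genes SOCS4 to SOCS7, the inhibitors PIAS1 and PIAS2 and the adaptor SHC1 lay between -0.30 and 0.32 with intervals that included 0. The feedback gene SOCS3 was without a UMI on either side, and 7 further list members were below 50 UMIs or not analysed here. The median of the 16 was 0.08. Among 13 other cytokine receptor genes none was 2-fold apart (median -0.20), beside 2.91 and 5.72% of all genes.

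**Figure D3:**
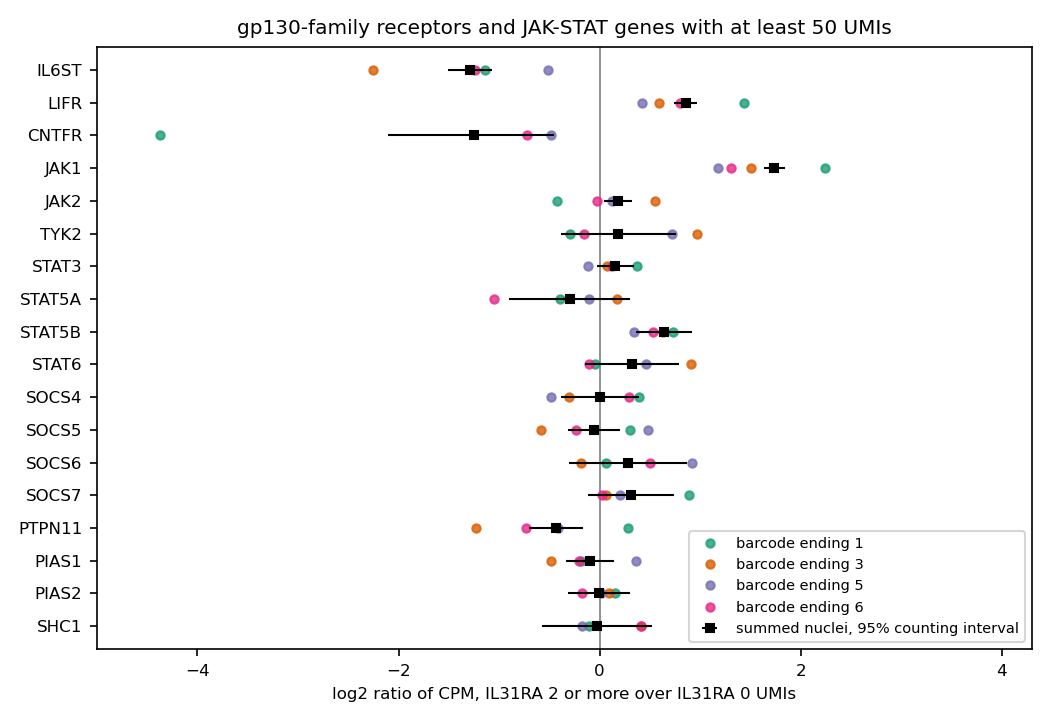
log2 ratio of CPM, double-positive over IL31RA-zero nuclei (horizontal axis), for 3 gp130-family genes and 15 of the 16 JAK-STAT genes that reached 50 UMIs. Squares are summed nuclei with the counting interval at 95%, and coloured points the barcode endings. JAK1, LIFR and STAT5B lie to the right in all 4 endings and IL6ST to the left, while most other genes have points on both sides of 0.

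Receptors for other itch and inflammatory mediators were split. Of 46 listed genes, 22 had at least 50 UMIs: 7 were 2-fold higher in double-positive nuclei, 4 were 2-fold lower, and the median was 0.31, beside 2.91% higher, 5.72% lower and a median of -0.05 over all genes. The histamine receptor gene HRH1 stood at 177 against 34.4 CPM (log2 2.37, 2.04 to 2.71) and was found in 158 of the 212 and 65 of the 238 nuclei. In endings 1, 3, 5 and 6 it was at 193, 195.5, 164 and 165 CPM against 48.0, 12.8, 39.7 and 36.4 CPM, with no overlap. PLCB3, the phospholipase that carries histamine signals in itch neurons, was at 127 against 37.5 CPM (1.76, 1.43 to 2.11). With other marker classes left out it was at 0.48, and with sides set on thinned counts at 0.998.

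CYSLTR2, a receptor for cysteinyl leukotrienes, was at 70.4 against 16.1 CPM (log2 2.13, 1.64 to 2.65), and at 1.52 without ending 1 and 2.78 without ending 3. The histamine receptor gene HRH2 was at 27.2 against 11.08 CPM (1.30). The prostaglandin E2 receptor gene PTGER2 (1.38) and the neuropeptide Y receptor gene NPY1R (1.43) came below 2-fold without ending 1, at 0.76 and 0.69, and PTGER2 was at 2.00 without ending 3 and at 0.32 after thinning. NPY2R held 49 against 13 UMIs (1.94).

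On the lower side, LPAR3 stood at 16.0 against 82.2 CPM (log2 -2.37, -2.88 to -1.88). Its level in IL31RA-zero nuclei was 122 CPM with 2 or more OSMR UMIs and 46.5 CPM with 1. PTGER3, another prostaglandin E2 receptor (-1.45), and PTGIR, the prostacyclin receptor (-1.23), came to -0.79 and -0.49 without ending 1, and in ending 6 PTGER3 was at 0.28. The histamine receptor gene HRH4 (24.5 against 29.1 CPM), the lysophosphatidic acid receptor gene LPAR1 (117 against 128 CPM) and the bradykinin receptor gene BDKRB2 (14.01 against 12.2 CPM) had intervals that included equality.

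**Figure D4:**
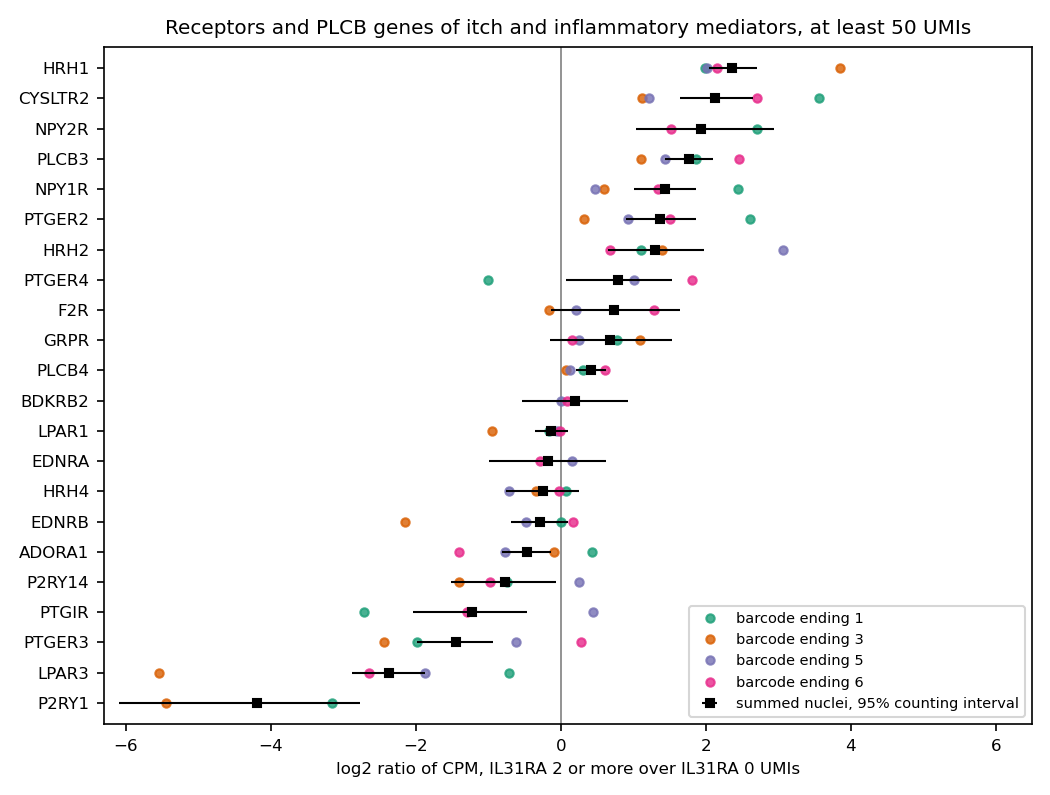
log2 ratio of CPM, double-positive over IL31RA-zero nuclei (horizontal axis), for 22 receptor and phospholipase genes of itch and inflammatory mediators with at least 50 UMIs, sorted by ratio; squares are summed nuclei with the counting interval at 95%, coloured points the barcode endings. HRH1, CYSLTR2 and PLCB3 lie to the right in each ending shown, LPAR3 and P2RY1 to the left, and PTGER4, PTGIR and PTGER3 have endings on both sides of 0.

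Of 16 measured genes of peptides and their processing, 6 were 2-fold higher and none was 2-fold lower (median 0.22), beside 2.91 and 5.72% of all genes. NPPB stood at 1773, 479.5, 61.9 and 30.4 CPM in the double-positive nuclei of endings 1, 3, 5 and 6, against 178, 71.1, 44.3 and 14.8 CPM in the IL31RA-zero nuclei. Within endings its log2 ratio was 3.31, 2.74, 0.46 and 1.00, and the mean of these was 1.88 against the pooled 2.88. NMB, which encodes neuromedin B, stood at 1787, 475, 58.6 and 47.4 CPM against 248, 49.2, 4.66 and 10.8 CPM (pooled 2.77). Both peptides were far higher in endings 1 and 3 than in 5 and 6 on the double-positive side.

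The granin gene SCG2 was at 251 against 48.2 CPM (log2 2.38). TAC1, PCSK2 and PAM, chosen after their values were seen as the other 3 past 2-fold, encode substance P, a prohormone convertase and the enzyme that amidates peptide ends. TAC1 was at 2515 against 649 CPM (1.95, 1.88 to 2.03), PCSK2 at 714 against 251 CPM (1.51, 1.38 to 1.64) and PAM at 810.2 against 327 CPM (1.31, 1.19 to 1.43). PCSK2 varied little over the endings of the double-positive side (635 to 830 CPM) beside TAC1 (391 to 5804 CPM). With other marker classes left out TAC1 was lower in double-positive nuclei (-0.88), SCG2 was at 0.63 and PAM at 0.87. The gene of somatostatin, SST, had 81 against 47 UMIs, and NTS, which encodes neurotensin, had 1 against 27. Lower by less than 2-fold were the prohormone convertase gene PCSK1 (18.7 against 34.0 CPM, log2 -0.86, -1.40 to -0.34), the granin-like gene VGF (21.8 against 35.2 CPM, -0.69, -1.20 to -0.20) and the carboxypeptidase gene CPE (-0.28, -0.42 to -0.15). PCSK1 was at 0.26 in ending 5.

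Among 13 genes of sodium channels and their partners, SCN11A alone was 2-fold higher and 3 were 2-fold lower, beside 2.91 and 5.72% of all genes. It stood at 960.5, 695.5, 709 and 638 CPM in the double-positive nuclei of endings 1, 3, 5 and 6, against 137, 220.5, 289 and 228 CPM (pooled log2 1.90, 1.76 to 2.04), with no overlap. SCN10A, the gene of the nociceptor channel Nav1.8, was at 813 against 509.9 CPM (0.67) and SCN9A, the gene of Nav1.7, at 1037 against 681 CPM (0.61). SCN1A, a channel gene of faster-conducting neurons, and the channel regulator gene FGF12 were lower, at -1.20 and -1.27. SCN1A was at -0.94 without ending 1 and -0.97 without ending 3, and FGF12 was at 0.32 with other marker classes left out. The median of the 13 was 0.03.

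Of 25 transduction channel genes, 6 were 2-fold higher and 6 lower (median 0.36), beside 2.91 and 5.72% of all genes. Beside TRPC6, the higher genes named by rule were TRPC4 (61.9 against 16.1 CPM, log2 1.95) and TRPV1, the receptor of capsaicin and heat (39.7 against 9.94 CPM, 2.00). TRPV1 kept its direction in the 4 endings, between 1.02 and 3.11. Beside PIEZO2 and TRPM8, the acid-sensing channel gene ASIC2 was lower over the sum (209 against 430.4 CPM, -1.04), although in ending 1 it was at 1.16, without ending 6 it was at -0.63 and without ending 4 at -0.97. With other marker classes left out ASIC2 was at 1.21, TRPV1 at 0.43 and TRPC4 at 0.64.

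Of 48 potassium and HCN channel genes, 4 were 2-fold higher and 14 lower (median -0.56), beside 2.91 and 5.72% of all genes. The 4 were KCNG3 (90.7 against 35.5 CPM), KCNG2 (108 against 49.3 CPM) and, chosen after their values were seen, KCNA3 (49 against 20 UMIs) and KCNN3 (74.3 against 36.3 CPM). KCNG2 was at 0.88 without ending 1 and 0.60 with at least 2 UMIs summed over SCN10A and SCN11A. KCNH8 was higher by less than 2-fold (326 against 169 CPM). KCNA1, KCNK1 and KCNQ3, an M-current channel gene (25.3 against 139 CPM), were among the lower, and KCNQ3 was at -0.56 without a limit on total UMIs. Of 15 calcium channel genes, 1 was 2-fold higher and 3 were lower (median 0.35), beside 2.91 and 5.72% of all genes: CACNA2D3, an auxiliary subunit, stood at 894 against 266 CPM (log2 1.75, 1.62 to 1.87), and the pore subunits CACNA1A (67.3 against 174 CPM), CACNA1H (22.6 against 67.3 CPM) and CACNA1I (7.39 against 23.3 CPM) were lower. CACNA1I, at -1.66, was at -0.15 without ending 6 and -3.94 without ending 5, and at 0.17 within ending 5. With IL31RA counted from 1 UMI, CACNA1A and CACNA1H were both at -0.94.

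None of 23 growth factor receptor genes was 2-fold higher and 7 were lower (median -0.46), beside 2.91 and 5.72% of all genes. NTRK2 stood at 90.3 against 406 CPM (log2 -2.17), GFRA2 at 42.0 against 154 CPM (-1.88) and NGFR, the low-affinity neurotrophin receptor gene, at 56.4 against 165.5 CPM (-1.55). IGF1R (0.63), the GDNF receptor gene RET (0.46) and its co-receptor GFRA1 (0.43) were higher over the sums by less than 2-fold. RET was at 0.04 without ending 1 and at -0.23 within ending 3, and GFRA1 was at -0.54 within ending 3 and -0.34 with other marker classes left out. With at least 2 UMIs summed over SCN10A and SCN11A, NTRK2 was at -0.74, and as a mean of the ratios within endings NGFR was at -0.99.

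Of 42 transcription factor genes, 4 were 2-fold higher and 9 lower (median -0.40), beside 2.91 and 5.72% of all genes. ETV1, an ETS-family factor, stood at 706, 558, 151 and 222 CPM in the double-positive nuclei of endings 1, 3, 5 and 6 and at 127.5, 89.3, 35.0 and 45.9 CPM in IL31RA-zero nuclei. Its levels differed between endings on both sides, while its ratio within an ending stayed between 2.07 and 2.63. TSHZ2 (log2 2.04) and ZFHX2 (1.75), a factor tied to inherited pain insensitivity, were also higher, and HOXD1 (-2.76), ONECUT2 (-2.05) and CASZ1 (-1.69) were lower. With sides set on thinned counts TSHZ2 was at 0.73 and ONECUT2 at -0.98. HOXD1, from 9 against 62 UMIs, was at -4.06 without ending 1, and CASZ1 was at -2.31 without ending 5.

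Of 9 inhibitory receptor genes, 3 were 2-fold higher and 2 lower (median -0.12), beside 2.91 and 5.72% of all genes. OPRM1, the mu-opioid receptor gene, stood at 825, 171, 293 and 296 CPM in double-positive nuclei of endings 1, 3, 5 and 6 against 222, 52.9, 189 and 190.3 CPM (pooled log2 1.34, 0.95 without ending 1, and 0.86 with other marker classes left out). The metabotropic glutamate receptor gene GRM7 was at 1574 against 644 CPM (1.29, and 0.99 with at least 2 UMIs summed over SCN10A and SCN11A, where OPRM1 was at 0.95). The kappa receptor gene OPRK1 was at 19.9 against 4.20 CPM, with 35 of its 51 double-positive UMIs in ending 6 (log2 1.30 without it), and the delta receptor gene OPRD1 was lower (11.3 against 35.2 CPM, log2 -1.64, and -2.40 without ending 5). Of 19 synaptic release genes none was 2-fold higher and 5 were lower (median -0.55), beside 2.91 and 5.72% of all genes, among them the complexin gene CPLX1 (31.5 against 172 CPM, log2 -2.45, and -3.19 without ending 6), the glutamate transporter gene SLC17A7, another large-fibre marker (3.11 against 27.5 CPM), and SYT6 (4.28 against 32.9 CPM).

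Nuclei with the same IL31RA rule but without OSMR gave a comparison that holds IL31RA detection fixed. These 120 nuclei, called IL31RA-only, had a median total of 8854.5 UMIs and carried IL31RA at 445 CPM, below the 965.5 CPM of double-positive nuclei. The 885 nuclei with neither transcript were shallower, with a median of 4779 UMIs. Of 8882 genes, 391 (4.40%) were at least 2-fold higher in double-positive than in IL31RA-only nuclei and 183 (2.06%) at least 2-fold lower. This comparison shares the double-positive nuclei with the one above, so its values are set beside it.

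JAK1 was high in the double-positive nuclei and near one level in the sums of the other 3 groups: 1232 CPM, against 342 CPM in IL31RA-only, 370.4 CPM in IL31RA-zero and 337 CPM in nuclei with neither. Over IL31RA-only nuclei its log2 ratio was 1.85 (1.70 to 2.00), with 2448, 957, 785 and 757 CPM in endings 1, 3, 5 and 6 against 787.5, 421.5, 339 and 224 CPM. SCN11A gave a like order, with 747, 241, 201 and 145 CPM in the 4 groups, and its IL31RA-only level was 224, 237, 240.5 and 238 CPM over the endings. ETV1 stood at 392, 101, 87.5 and 126 CPM, and TRPC6 at 112, 12.3, 3.06 and 3.85 CPM. LIFR was at 658, 282, 364 and 239.7 CPM.

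IL6ST and PIEZO2 followed another order. IL6ST was at 95.3 CPM in double-positive and 77.5 CPM in IL31RA-only nuclei, at 232 CPM in IL31RA-zero nuclei and at 138 CPM with neither. PIEZO2 was at 267 and 152 CPM with IL31RA, at 1308 CPM in IL31RA-zero nuclei and at 579.6 CPM with neither. For these 2 genes the groups with IL31RA lay below both groups without it over the summed nuclei.

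Itch and peptide genes differed in how they fell over the groups. CYSLTR2 was at 70.4 CPM in double-positive and 10.7 CPM in IL31RA-only nuclei, PTGER2 at 52.5 and 6.14 CPM, KCP at 92.2 and 6.90 CPM and RGS3 at 277 and 46.8 CPM. HRH1 was closer, at 177 and 136 CPM. TAC1 was higher in IL31RA-only nuclei, at 3618 against 2515 CPM, and so in each of endings 1, 3, 5 and 6. PTGER4 (56.0 against 17.9 CPM) and OPRK1 (54.5 against 19.9 CPM) were also higher in IL31RA-only nuclei. NPPB was at 570.1 and 228 CPM, but at 30.4 and 35.7 CPM in ending 6.

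**Figure D5:**
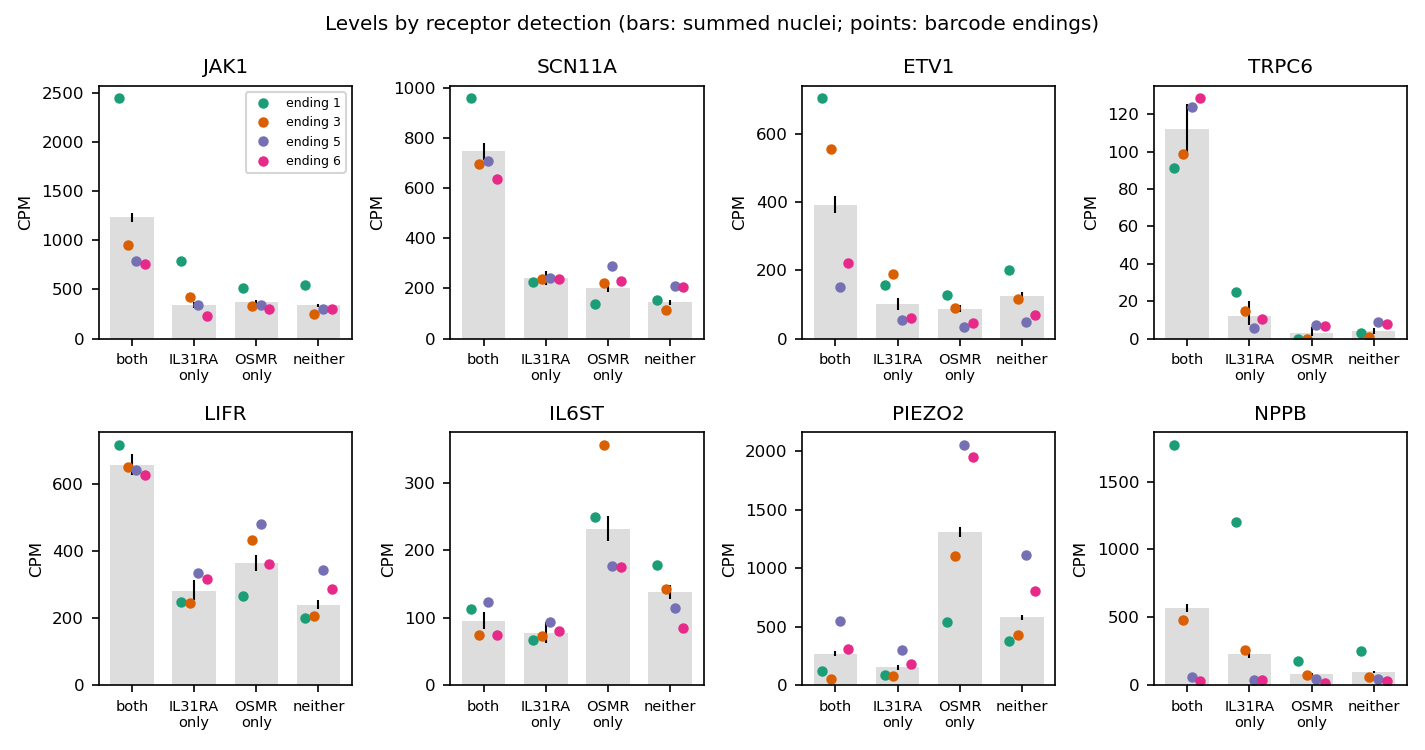
CPM (vertical axes, from 0) of 8 genes in double-positive nuclei (both, 212), nuclei with IL31RA but no OSMR (120), IL31RA-zero nuclei (OSMR only, 238) and nuclei with neither (885); bars are summed nuclei with exact Poisson 95% intervals, coloured points the barcode endings. JAK1, SCN11A, ETV1, TRPC6 and LIFR are highest in the first group in each ending, IL6ST and PIEZO2 in the third, and NPPB is high in endings 1 and 3 of the first pair of groups.

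The 42 OSMR-positive nuclei with a single IL31RA UMI lay nearer to the IL31RA-zero side. JAK1 was at 425 CPM (376 to 479), SCN11A at 275 CPM (235 to 319), TRPC6 at 6.35 CPM from 4 UMIs, PIEZO2 at 1213 CPM, IL6ST at 165 CPM and NPPB at 154 CPM. Over the 492 OSMR-positive nuclei thinned to 2000 UMIs, the genes most like IL31RA among 5145 genes were CPNE5 (Spearman's rho 0.54), SCN11A (0.49), PDE4D (0.46), EXOC4 (0.46) and RGS3 (0.46). OSMR itself ranked at 67 with a rho of 0.23, and PIEZO2 had the lowest value, -0.44. These correlations run over nuclei that share libraries and depth and are given as a description.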

How the data were processed

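The authors deposited 1 table of raw UMI counts, 30477 genes by 2189 nuclei, from nuclei of 5 pigs; unit and layout were checked on the values, and totals ran from 501 to 338372 UMIs per nucleus. The tools Cell Ranger 6.0.1 and Seurat and build Sscrofa11.1 appear, with no role stated, per the submitters' processing notes, and filters applied to nuclei before deposit are not given there. Ensembl identifiers named 14012 rows, of which 773 were matched to a symbol, and 6124 rows were without a count. The 6 barcode endings were used as a technical split only.

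For each side, UMIs were added up over its nuclei and divided by the total (2569755 and 2616433 UMIs) to give CPM. Intervals at 95% were exact conditional binomial for ratios, exact Poisson for CPM and Clopper-Pearson for shares, and cover counting error alone. Ratios needed 50 UMIs over both sides, and within an ending 10 nuclei a side and 10 UMIs, with 0.5 counts added. The ratio was tested on simulated data. Python 3.11.15, numpy 2.4.6, scipy 1.17.1 and pandas 2.3.3 were used.

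Named genes were the 12 in each direction, among genes with a symbol that are 2-fold apart with the same direction in every ending, whose interval bound nearest to equality lay farthest from it, up to 3 in each direction of each gene list whose interval excluded equality, and measured members of the receptor and JAK-STAT lists. Marker gates were 3 UMIs of a gene. The members, lists and markers were chosen with earlier results of these data known. Alternatives were other receptor minimums, UMI ranges, count filters, scalings, pooling, thinning, leaving out endings or marker classes, and 2 chosen after seeing the data: nuclei with at least 2 UMIs summed over SCN10A and SCN11A, and sides set on thinned counts with the remaining counts compared. Values of some list members are not reported here.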

Additional observations from a re-analysis of the deposited data

How the results depend on the processing

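The counts of genes at least 2-fold higher and lower in double-positive nuclei (291 and 572) moved by over 1.5 times under 6 settings: 142 and 259 with nuclei thinned to 2000 UMIs, 514 and 865 with a minimum of 20 UMIs, 137 and 258 with 200 UMIs, 929 and 160 with nuclei of other marker classes left out (97 against 10 nuclei), 174 and 331 with sides set on thinned counts and compared on the rest (chosen after seeing the data), and, for lower genes alone, 355 with at least 2 UMIs summed over SCN10A and SCN11A required (chosen after seeing the data). Fewer or more genes were measured under these settings, and what else moved the counts was not tested. The main shares were 2.91 and 5.72% of 9996 genes. Thinning gave 3.71 and 6.76% of 3829 genes, and sides set on thinned counts 2.885 and 5.49% of 6031. The minimum of 20 UMIs gave 4.095 and 6.89% of 12551 genes, and that of 200 UMIs 2.69 and 5.06% of 5095. Leaving out other marker classes gave 25.7 and 4.42% of 3618 genes, and requiring UMIs of SCN10A and SCN11A 2.71 and 3.86% of 9202. Leaving out each barcode ending in turn gave 209 to 292 higher and 479 to 616 lower genes (2.39 to 3.25% and 5.05 to 7.02% of genes measured). Of the 291 and 572 genes, 232 and 384 of the 249 and 415 with a value stayed past 2-fold with at least 2 OSMR UMIs, and 203 and 267 of 274 and 450 with those UMIs of SCN10A and SCN11A. Among the 72 named genes at least 2-fold apart, directions turned with other marker classes left out for IL6ST (0.38), ASIC2 (1.21), FGF12 (0.32) and TAC1 (-0.88), and under no other setting run; of all 118 named genes, 31 changed sign under at least 1 setting. Of 13 list medians, 10 changed sign somewhere: with other marker classes left out those of the gp130 family (0.643), potassium channels (0.00797), synaptic genes (0.0847), transcription factors (0.319) and inhibitory receptors (1.18); the gp130 median also with thinning (0.037) and 20 UMIs (0.0887); and, at their lowest, calcium channels (-0.349), itch receptors (-0.15), transduction channels (-0.0536), sodium channels (-0.125) and JAK-STAT genes (-0.0347). The inhibitory receptor median was also positive with IL31RA counted from 1 UMI (0.0704) or from 4 UMIs (0.169). The same held without a limit on total UMIs (0.173), with thinning (0.521), without ending 1 (0.0166) and without ending 3 (0.227). With other marker classes left out, the median over all genes was itself 0.319, against -0.046 in the main setting, and 25.7% of genes were at least 2-fold higher. The values of IL6ST, FGF12 and transcription factors in that setting lay near that median, and those of potassium channels and synaptic genes below it. No paired analysis was possible because the table pools the pigs and nothing ties barcodes to them. Sums of 2569755 and 2616433 UMIs limit genes of a few UMIs to wide intervals, and the spread between pigs is unknown.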

Other observations

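OSMR-positive nuclei outside the range of totals were few and are given as values. The share of all genes higher or lower in them was not counted, so counts of named genes stand without a background. Below 2000 UMIs, 7 nuclei (endings 1 and 3) had 2 or more IL31RA UMIs and 31 (endings 1, 3, 5 and 6) had 0, with 10103 and 43852 UMIs in all. Of the 12 named higher genes 10 were higher and of the 12 lower genes 8 were lower. COCH and KLHL14 were counted as higher from 1 against 2 UMIs and CHODL from 1 against 4. JAK1 held 9 against 19 UMIs. Above 50000 UMIs, 11 nuclei (endings 2, 4 and 6) faced 7 (endings 4 and 6), with 1668524 and 461017 UMIs. There JAK1 stood at 1299 against 312 CPM, SCN11A at 564 against 217 CPM, TRPC6 at 44.4 against 2.17 CPM (74 against 1 UMIs) and NMB at 185 against 2.17 CPM (308 against 1 UMIs), and the 12 higher genes were all higher. Of the 12 lower genes 5 were lower: PIEZO2 stood at 398 against 1176 CPM, but TRPM8 at 180 against 43.4 CPM and PLCD4 at 62.9 against 39.0 CPM. IL6ST stood at 170 against 130 CPM in these nuclei, the opposite order to the nuclei in range.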
